A study of Mus musculus with 14 samples.

Results

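Livers of wild-type mice that received an interleukin 13 (IL-13) plasmid were compared with livers of wild-type mice that received an EGFP plasmid. The comparison used the 3 arrays titled as wild type with IL-13 and the 4 titled as wild type with EGFP, 7 of the 14 arrays of the series, and all 9711 genes whose probes passed the detection filter. EGFP is a fluorescent reporter protein and served as the control cargo. In both groups the plasmid was given by hydrodynamic delivery, a rapid large-volume injection that carries DNA into hepatocytes, and per the labels' protocols the livers were taken 1 week after it, when the animals were killed. RNA of whole liver was hybridised to an Illumina mouse BeadChip, 1 array for each sample. The sources used here give no strain, age, sex, plasmid dose or promoter for IL-13. The other 7 arrays are of Alb-Cre livers (4 with EGFP and 3 with IL-13). The series title sets that genotype on a floxed Il4ra background, where the albumin promoter drives Cre in hepatocytes. Nothing in the labels says that each array is a separate mouse, so the p-values reflect sample-to-sample spread, which may be technical.

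IL-13 is a cytokine of type 2 immunity, the response to helminths and allergens. It binds a receptor made of the IL-4 receptor alpha chain and IL-13 receptor alpha 1, whose Janus kinases phosphorylate the transcription factor STAT6. In the liver this pathway is known for alternative activation of macrophages, recruitment of eosinophils and fibrosis. Hepatocytes, stellate cells, biliary cells and macrophages can all carry the receptor.

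The mean intensity was similar on the 7 arrays, between 283 and 354. Of 25697 probes 12006 to 12383 were detected on the EGFP arrays and 12404 to 13261 on the IL-13 arrays. Every IL-13 array thus detected more probes than every EGFP array. Over the 9711 genes tested r was 0.980 to 0.993 among replicates and 0.921 to 0.928 across the groups. The probe for Il13, the delivered gene, read 4.84, 4.55, 4.75 and 4.88 on the EGFP arrays and 4.63, 4.46 and 4.78 on the IL-13 arrays, with a log2 change of -0.13 ± 0.15 and an adjusted p of 0.537. The sources used here do not say whether this probe can read the plasmid's transcript. Of the defining hepatocyte markers 7 of 8 passed the filter and were detected on all 7 arrays, so the RNA carried the markers of the labelled tissue. The number of arrays limits the precision of every value.

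IL-13 replicate 3 stood apart from the other IL-13 arrays in its sex-linked transcripts. Xist, which silences an X chromosome in female cells, read 6.11, 5.91, 5.88 and 6.05 on the EGFP arrays and 6.38, 5.72 and 4.36 on the IL-13 arrays. The Y-linked Eif2s3y read 4.15, 4.15, 4.22 and 4.18 on the EGFP arrays and 4.16, 4.203 and 6.89 on the IL-13 arrays. On replicate 3 the Y-linked transcript was high and Xist was near the floor, and on the other 6 wild-type arrays it was the reverse. It was also the only wild-type IL-13 array on slide 2, where EGFP replicates 3 and 4 lay. In the IL-13 group, sex and slide therefore cannot be told apart from this single array, and counts are given with and without it.

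Changes are on the scale of normalised log2 intensity, IL-13 minus EGFP, and each ± gives the standard error from limma. A gene is said to have risen or fallen where limma's adjusted p (Benjamini-Hochberg over 9711 genes, two-sided) was under 0.05. Where a gene was undetected on every array of a group the fold is a lower bound and is written as "at least". In whole tissue, fewer cells of a type and less RNA per cell cannot be told apart.

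The promoters of 3 of the genes with the largest changes are shown because they hold a motif of the kind that STAT proteins bind, a palindrome TTC and GAA with 3 or 4 bases between. STAT6 is known to prefer the spacing of 4. The stretches run from 250 bases before to 50 after the annotated start of transcription, are credited to RefSeq on build GRCm38.p6, and carry the match in capitals. Retnla (resistin-like alpha) lies on the plus strand at chr16:48842359-48842658 and its match begins 145 bases before the start. Chil3 (a chitinase-like protein) lies on the minus strand at chr3:106167515-106167814, with its match 172 bases before the start. Hamp2 (a hepcidin gene) lies on the minus strand at chr7:30924132-30924431, with its match 94 bases before the start.
Retnla: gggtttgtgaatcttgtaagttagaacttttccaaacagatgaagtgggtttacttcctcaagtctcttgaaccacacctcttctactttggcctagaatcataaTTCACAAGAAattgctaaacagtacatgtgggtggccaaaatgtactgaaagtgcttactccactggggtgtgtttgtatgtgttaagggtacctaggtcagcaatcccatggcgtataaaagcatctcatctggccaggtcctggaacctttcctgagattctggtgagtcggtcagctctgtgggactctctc
Chil3: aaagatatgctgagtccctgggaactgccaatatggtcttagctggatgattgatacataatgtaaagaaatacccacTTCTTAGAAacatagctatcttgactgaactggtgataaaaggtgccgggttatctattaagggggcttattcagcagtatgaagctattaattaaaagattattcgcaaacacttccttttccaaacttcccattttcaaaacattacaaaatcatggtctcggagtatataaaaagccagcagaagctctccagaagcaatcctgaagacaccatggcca
Hamp2: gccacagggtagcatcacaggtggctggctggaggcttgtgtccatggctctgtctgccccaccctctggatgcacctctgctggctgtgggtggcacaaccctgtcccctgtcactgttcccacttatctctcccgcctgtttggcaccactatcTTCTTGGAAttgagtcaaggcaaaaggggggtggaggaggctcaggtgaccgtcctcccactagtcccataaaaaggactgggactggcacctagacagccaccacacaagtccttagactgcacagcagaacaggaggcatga

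Of the 20 genes with the largest changes, 14 had a promoter in the table that could be used, and these 3 held a match. The motif with 4 bases between stood in 7.14% of the 126 promoters of genes that rose at least 4-fold, in 6.12% of the 98 of genes that fell at least 4-fold and in 5.29% of the 7878 of all genes tested. The motif with 3 bases between, TTCNNNGAA, stood in 9.52%, 7.14% and 6.88% of the same promoters. Among all 27025 promoters of the table the shares were 6.99% and 8.47%. Each motif reads the same on both strands, and the motifs do not overlap in these 3 promoters. A match describes the letters of this window and is not a binding site.

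IL-13 was followed by changes in 3952 of 9711 genes (40.7%), of which 2090 rose (21.5%) and 1862 fell (19.2%). Counts of list members below are to be read beside these shares. With arrays scaled to their median in place of quantile normalisation 1624 rose and 2310 fell, so the balance of rises and falls depends on the scaling. Changes of at least 2-fold numbered 588 rises (6.05%) and 487 falls (5.01%), and changes of at least 4-fold 170 and 119. The median change over all genes was 0.00077. The arrays of the groups did not overlap for 4220 genes (43.5%), which is the share against which separation of the groups in single genes is to be read. A total of 200 genes (2.06%) were undetected on all 4 EGFP arrays and detected on all 3 IL-13 arrays, and 182 of these rose. A choice by detection itself favours a rise, so the 182 are a description. In the reverse direction 43 genes fell from detection on every EGFP array to detection on none of the IL-13 arrays. This count is to be set beside the 182, and every IL-13 array detected more probes than any EGFP array. Without replicate 3 there were 2048 rises and 1690 falls, and 3443 of the 3952 genes were called again. On slide 1 alone 1463 rose and 1206 fell, and on slide 2 alone, which holds 1 wild-type IL-13 array, 1237 rose and 1212 fell.

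**Figure D1:**
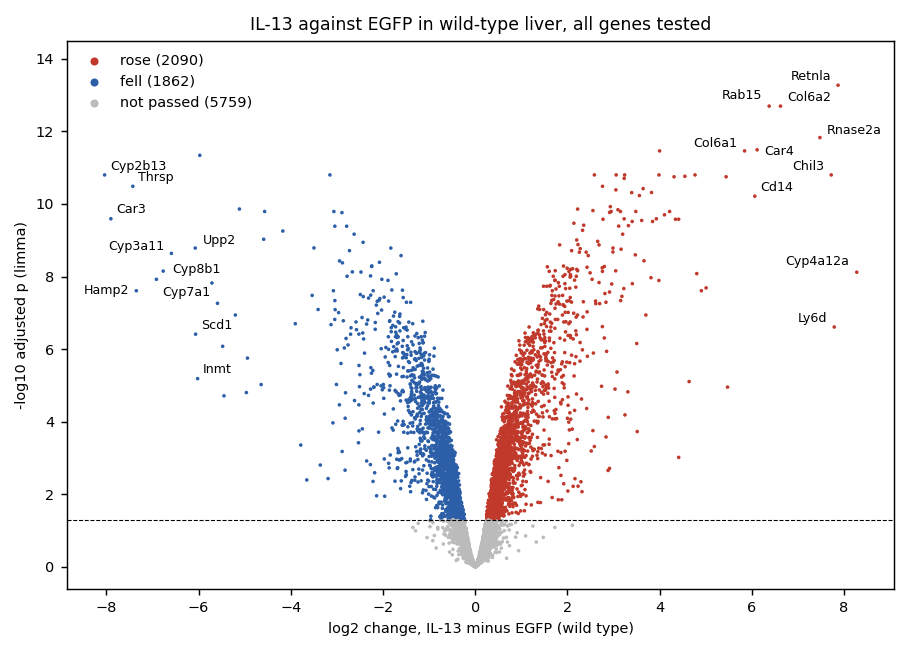
Log2 change (x axis, IL-13 minus EGFP in wild type) against -log10 of the limma adjusted p (y axis) for each of the 9711 genes. Red points rose (2090), blue points fell (1862), grey points did not pass, the dashed line marks an adjusted p of 0.05, and the 20 labelled genes are the 10 largest rises and falls.

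Cyp4a12a, a fatty acid hydroxylase that male mouse liver normally expresses, read 4.46, 4.55, 5.16 and 4.98 on the EGFP arrays and 12.75, 13.19 and 13.25 on the IL-13 arrays. The groups lay far apart, with a change of 8.28 ± 0.53 (adjusted p = 7.59e-09). Retnla read 4.23, 4.28, 4.28 and 4.30 on the EGFP arrays and 12.39, 12.24 and 11.80 on the IL-13 arrays. Chil3 read 4.36, 4.10, 4.14 and 4.15 on the EGFP arrays and 11.71, 11.91 and 12.10 on the IL-13 arrays. All 3 IL-13 arrays were high for both, no EGFP array detected either, and the rises were at least 198-fold and 168-fold (adjusted p = 5.32e-14 and 1.58e-11). Ly6d, a surface antigen of the Ly6 family, read 4.37, 4.26, 4.51 and 4.18 on the EGFP arrays and 11.78, 12.33 and 12.25 on the IL-13 arrays, a rise of at least 194-fold (adjusted p = 2.46e-07). Rab15, a small GTPase of endosomal traffic, read 4.16, 4.30, 4.32 and 4.28 on the EGFP arrays and 10.39, 10.97 and 10.56 on the IL-13 arrays, a rise of at least 69.7-fold (adjusted p = 2.00e-13). Car4, a membrane-anchored carbonic anhydrase, read 4.40, 4.50, 4.19 and 4.27 on the EGFP arrays and 10.53, 10.43 and 10.41 on the IL-13 arrays, a rise of at least 61.3-fold (adjusted p = 3.21e-12). In none of these 3 did the groups overlap, and the EGFP arrays were undetected throughout.

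The collagen VI chains Col6a1 and Col6a2, which form beaded filaments next to basement membranes, were the matrix genes with the largest rises. Col6a1 read 7.08, 7.04, 7.67 and 7.59 on the EGFP arrays and 13.20, 13.35 and 13.001 on the IL-13 arrays, and Col6a2 read 5.08, 5.35, 5.65 and 4.89 on the EGFP arrays and 11.99, 11.97 and 11.64 on the IL-13 arrays. Both groups were tight for each chain, and the changes were 5.84 ± 0.19 and 6.62 ± 0.16. Cd14, the co-receptor for endotoxin, read 5.77, 5.59, 5.95 and 5.38 on the EGFP arrays and 11.36, 11.27 and 12.58 on the IL-13 arrays, with replicate 3 the highest of the IL-13 arrays. Without that array the change of Cd14 was 5.64 (adjusted p = 2.73e-11).

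Cyp2b13, a P450 that female mouse liver normally expresses, read 12.65, 11.92, 12.65 and 12.56 on the EGFP arrays and 4.49, 4.44 and 4.29 on the IL-13 arrays. It was near the floor on all 3 IL-13 arrays, including both that carried Xist, with a change of -8.04 ± 0.30 (adjusted p = 1.58e-11). Car3, a carbonic anhydrase abundant in hepatocytes, read 11.96, 11.96, 12.31 and 12.45 on the EGFP arrays and 4.31, 4.30 and 4.19 on the IL-13 arrays and was undetected on every IL-13 array, a fall of at least 209-fold (adjusted p = 2.56e-10). Thrsp, a regulator of lipogenesis, read 12.32, 12.02, 12.78 and 12.53 on the EGFP arrays and 4.78, 4.71 and 5.45 on the IL-13 arrays. Hamp2 read 13.13, 12.01, 13.51 and 12.94 on the EGFP arrays and 6.08, 5.41 and 5.15 on the IL-13 arrays. Its IL-13 arrays were all low and the EGFP arrays all high, as for Thrsp, with changes of -7.35 ± 0.53 and -7.43 ± 0.30.

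Cyp7a1, which controls the rate of bile acid production, read 12.57, 11.81, 12.33 and 12.44 on the EGFP arrays and 4.31, 5.27 and 6.54 on the IL-13 arrays. The 3 IL-13 arrays were spread over more than 2 log2 units but none came near the EGFP arrays, with a change of -6.92 ± 0.46 (adjusted p = 1.19e-08). Cyp8b1, the sterol 12-alpha-hydroxylase needed for cholic acid, read 12.40, 11.94, 12.04 and 11.998 on the EGFP arrays and 4.61, 5.64 and 5.73 on the IL-13 arrays. Cyp3a11, a drug-metabolising P450, read 13.11, 13.01, 12.55 and 13.21 on the EGFP arrays and 7.16, 6.13 and 5.85 on the IL-13 arrays. All IL-13 arrays were low for both, with changes of -6.77 ± 0.43 and -6.59 ± 0.38. Scd1, the stearoyl-CoA desaturase, read 11.68, 11.72, 12.47 and 11.96 on the EGFP arrays and 5.82, 6.16 and 5.69 on the IL-13 arrays. Upp2, a uridine phosphorylase, read 10.81, 11.11, 11.01 and 11.39 on the EGFP arrays and 5.19, 4.37 and 5.45 on the IL-13 arrays. Inmt, an N-methyltransferase, read 12.75, 12.80, 13.23 and 13.62 on the EGFP arrays and 9.21, 7.03 and 4.99 on the IL-13 arrays, so its IL-13 arrays differed among themselves by more than 4 log2 units while all lay below the EGFP arrays.

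**Figure D2:**
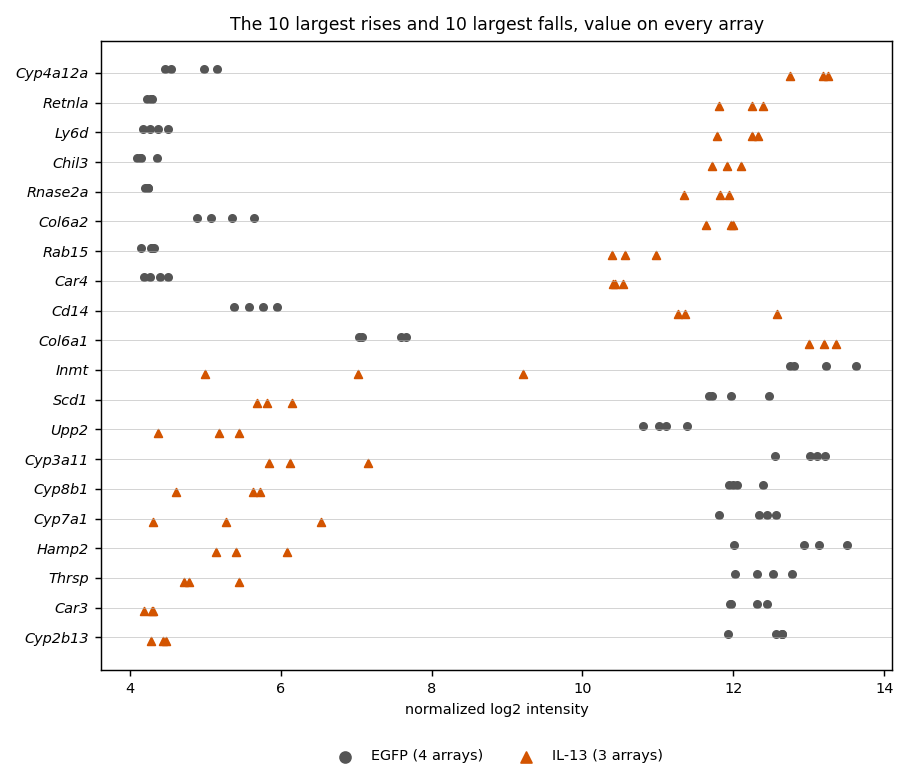
Normalised log2 intensity (x axis) of the 10 largest rises and 10 largest falls on each wild-type array. Circles are the 4 EGFP arrays and triangles the 3 IL-13 arrays, and the groups are separated for every gene shown, with Inmt the most widely spread over the IL-13 arrays (4.99 to 9.21).

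Of 14 receptor chains, kinases and STATs of the pathway tested, 5 rose and 1 fell (4 and 2 without replicate 3, 3 rises under median scaling or on the deposited values). That is 42.9% of the list, near the 40.7% of all genes. The list median was 0.17, and just under 0 with median scaling. Il13ra2, the decoy receptor that binds IL-13 without signalling through STAT6, read 4.24, 4.26, 4.19 and 4.23 on the EGFP arrays and 5.84, 6.49 and 6.19 on the IL-13 arrays and rose at least 3.16-fold (adjusted p = 1.57e-08). The groups did not overlap, and it was undetected on every EGFP array. Il13ra1, the signalling chain, changed by 0.18 ± 0.21 on the log2 scale (adjusted p = 0.535), and Stat6 one of -0.20 ± 0.13 (adjusted p = 0.236), neither past the threshold. Stat3, a mediator of IL-6 family cytokines, rose by 0.78 ± 0.21 (adjusted p = 0.00708), a call that ended under median scaling, on the deposited log2 values and within slide 1. Jak2 rose by 0.45 on 1 of 2 probes and Tyk2 fell on 1 of 3, with a change of -0.39. Neither passed within either slide, and Tyk2 did not pass on the deposited log2 values. Il4ra is not analysed here.

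Among suppressors of cytokine signalling, feedback inhibitors that JAK and STAT signalling induces, 3 of 7 rose and 0 fell (3 and 0 without replicate 3). Cish read 8.76, 7.76, 7.94 and 8.11 on the EGFP arrays and 11.40, 11.41 and 11.83 on the IL-13 arrays, a change of 3.41 ± 0.23 (adjusted p = 1.57e-08). Socs2, which restrains growth hormone signalling, read 8.06, 7.64, 8.44 and 8.73 on the EGFP arrays and 10.93, 11.03 and 11.79 on the IL-13 arrays, a change of 3.03 ± 0.39 (adjusted p = 1.27e-05). Socs3 read 6.72, 7.30, 6.43 and 6.56 on the EGFP arrays and 8.45, 8.27 and 9.62 on the IL-13 arrays, with replicate 3 the highest, and its change was 1.61 without that array. None of the 3 overlapped between groups. Socs1, an inhibitor of IL-4 and interferon signalling, had a change of -0.069 ± 0.12 and did not pass (adjusted p = 0.698).

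Several secreted products of type 2 inflammation rose. Of 9 resistin-like and chitinase-like genes listed, 5 passed the detection filter, and these 5 rose (5 and 0 without replicate 3). Besides Retnla and Chil3 they included Retnlg, a resistin-like gene of myeloid cells (1.91 ± 0.22), and Chil4, undetected with EGFP, which rose at least 1.16-fold (adjusted p = 9.51e-04). Retnla, Chil3 and Chil4 were undetected on every EGFP array, so in wild type only IL-13 arrays could carry them past the filter. Retnlb, Retn, Chia1 and Chit1 were not tested. With no filter on dim probes 5 members rose, and the list median was 0.517 in place of 1.91. In the ribonuclease A family 3 of 6 rose and 0 fell (3 and 0 without replicate 3). Rnase2a, of the eosinophil-associated branch, read 4.21, 4.25, 4.25 and 4.23 on the EGFP arrays and 11.35, 11.95 and 11.83 on the IL-13 arrays. Ear10, of the same branch, read 4.19, 4.26, 4.22 and 4.16 on the EGFP arrays and 7.53, 8.04 and 7.74 on the IL-13 arrays. The EGFP arrays detected neither, and the rises were at least 146-fold and 9.53-fold. In wild type only IL-13 arrays could thus carry these 2 past the filter. With no filter on dim probes 3 members of the family rose, and the list median was 0.0022 in place of 0.70. Near-identical ribonucleases of this branch can bind each other's probes. Ang, which hepatocytes secrete, had a change of -0.30 ± 0.23 and did not pass.

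Of 5 eosinophil markers tested 1 rose and 0 fell, against shares of 21.5% and 19.2% over all genes. The list shares members with the ribonucleases, and Rnase2a was its rising member. Prg2, major basic protein, read 4.33, 4.28, 4.28 and 4.21 on the EGFP arrays and 4.46, 4.35 and 4.31 on the IL-13 arrays, and Ccr3, the eotaxin receptor, was undetected on all 7 arrays. Probes for Epx and Siglecf did not pass the filter. Over the 3 of 5 defining eosinophil markers that were tested, the summed linear level was 57.5 to 60.3 with EGFP and 2650 to 3990 with IL-13, with Rnase2a carrying the rise.

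Of 23 chemokine ligands tested 13 rose and 6 fell (11 and 4 without replicate 3), against shares of 21.5% and 19.2% over all genes. Ccl11, eotaxin 1, read 4.86, 4.61, 4.76 and 4.50 on the EGFP arrays and 9.52, 10.35 and 10.50 on the IL-13 arrays, a change of 5.44 ± 0.21 (adjusted p = 1.78e-11). Ccl24, eotaxin 2, read 5.65, 5.27, 5.26 and 4.91 on the EGFP arrays and 6.62, 7.08 and 7.37 on the IL-13 arrays, a smaller change of 1.75 ± 0.25. Both lay above every EGFP array. Ccl6, a chemokine of macrophages, rose by 3.82 ± 0.16 and Pf4, platelet factor 4, by 1.90 ± 0.14. The interferon-gamma-induced Cxcl9 read 6.82, 6.61, 7.35 and 6.86 on the EGFP arrays and 4.35, 4.59 and 4.72 on the IL-13 arrays and fell, with a change of -2.36 ± 0.20 (adjusted p = 2.04e-07). Among 6 chemokine receptors 2 rose, namely Ackr2, which scavenges inflammatory chemokines (0.94 ± 0.19), and Cxcr4 (0.45 ± 0.12). Within slide 1 Cxcr4 did not pass (change 0.51, limma adjusted p = 0.0557). On slide 2, with 1 wild-type IL-13 array, the changes were 0.55 for Ackr2 and 0.37 for Cxcr4. Cx3cr1, of monocytes, had a change of -0.19 ± 0.18 and did not pass.

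Macrophage lectins and scavenger receptors changed in both directions, as of 13 tested members 8 rose and 4 fell (6 and 4 without replicate 3). Mrc1, the mannose receptor, read 8.89, 8.68, 8.70 and 8.82 on the EGFP arrays and 11.27, 11.33 and 11.37 on the IL-13 arrays, a change of 2.55 ± 0.12 (adjusted p = 1.52e-10). Mgl2 rose by 2.76 ± 0.11, and Clec10a, its close homologue, was undetected with EGFP and rose at least 2.16-fold. Cd163, the receptor for haptoglobin and haemoglobin complexes, rose by 1.98 ± 0.21. Clec4f, a lectin particular to Kupffer cells in mouse, read 8.63, 8.63, 8.56 and 8.24 on the EGFP arrays and 5.60, 6.30 and 6.996 on the IL-13 arrays and fell, with a change of -2.22 ± 0.25 (adjusted p = 3.87e-06). Of the defining Kupffer cell markers 3 of 5 were tested, and 1 rose and 2 fell. Their summed linear level was 865 to 1150 with EGFP and 688 to 1390 with IL-13, so the groups overlapped.

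Lysosomal enzymes showed no common direction, as of 26 tested members 7 rose and 4 fell (9 and 3 without replicate 3, 3 rises on the deposited values, 4 rises under median scaling, 8 falls under median scaling), and their median of 0.14 was -0.046 under median scaling and -0.039 on slide 2. Over all genes 21.5% rose and 19.2% fell. Lgmn, legumain, read 9.19, 9.22, 9.30 and 9.30 on the EGFP arrays and 10.93, 10.90 and 10.999 on the IL-13 arrays, a change of 1.69 ± 0.11 (adjusted p = 9.82e-09). The cathepsins Ctss (1.36 ± 0.12) and Ctsk (1.16 ± 0.15) rose too, while Gm2a, the GM2 ganglioside activator, fell (-1.08 ± 0.13). Of 14 galectins and S100 proteins 7 rose and 2 fell (8 and 1 without replicate 3, 1 fall without EGFP replicate 1, 2, 3 or 4 or IL-13 replicate 1). Lgals3 read 6.51, 6.47, 6.62 and 6.36 on the EGFP arrays and 9.65, 9.64 and 9.47 on the IL-13 arrays. The calcium-binding S100a11 read 7.59, 7.63, 8.06 and 7.63 on the EGFP arrays and 10.29, 10.91 and 10.27 on the IL-13 arrays. Neither overlapped between groups, with changes of 3.10 ± 0.14 and 2.76 ± 0.18. Lgals1 (1.60 ± 0.22) and S100a6 (2.43 ± 0.25) rose as well.

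Of 14 collagen chains 9 rose and 3 fell (9 and 3 without replicate 3, 1 fall without EGFP replicate 4 or IL-13 replicate 1 or 2). Their median of 1.76 was 0.45 with no filter on dim probes, 0.92 without background correction and 1.01 on the deposited log2 values. The fibrillar chain Col1a1 read 6.05, 5.79, 6.22 and 6.09 on the EGFP arrays and 9.90, 10.71 and 9.47 on the IL-13 arrays, and Col3a1 rose by 3.22 ± 0.23. Col4a2, of basement membranes, rose by 2.16 ± 0.15. The lowest change of a chain was -1.06. Of 17 enzymes that process and cross-link collagen 11 rose and 1 fell (10 and 2 without replicate 3). Tgm2, the tissue transglutaminase, read 10.15, 10.42, 10.30 and 10.26 on the EGFP arrays and 12.99, 13.14 and 13.46 on the IL-13 arrays, a change of 2.91 ± 0.21 (adjusted p = 2.67e-08). The lysyl oxidases Lox, at least 13.05-fold, and Loxl1 (1.94 ± 0.20) rose, as did Pcolce2, an enhancer of procollagen cleavage (2.42 ± 0.21).

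Of matrix glycoproteins and proteoglycans 14 of 21 rose and 1 fell (14 and 1 without replicate 3). Lum, lumican, read 6.57, 6.75, 7.24 and 7.35 on the EGFP arrays and 11.25, 11.56 and 11.14 on the IL-13 arrays, the largest change in the list (4.34 ± 0.21). Emilin1 of elastic fibres (2.01 ± 0.18) and the microfibril gene Mfap2, at least 3.02-fold, rose, and Fbln1 rose on 1 of its 2 probes. Of 13 metalloproteinases and their inhibitors 8 rose and 1 fell (8 and 1 without replicate 3). The gelatinase Mmp2 read 7.42, 7.29, 7.61 and 7.58 on the EGFP arrays and 11.13, 10.97 and 10.74 on the IL-13 arrays, and its activator Mmp14 rose by 1.94 ± 0.15. The inhibitors Timp2 (2.75 ± 0.17) and Timp1 (1.91 ± 0.15) rose in the same livers.

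TGF-beta signalling genes were mixed, as of 21 tested members 7 rose and 4 fell (6 and 3 without replicate 3), with a median of 0.16 that was -0.031 on slide 2. The receptor Tgfbr2 rose (1.53 ± 0.16), the transducer Smad2 fell (-0.89 ± 0.10) and the target gene Tgfbi fell (-1.39 ± 0.18). Fst, follistatin, which binds activins, read 4.64, 5.26, 4.99 and 4.77 on the EGFP arrays and 7.49, 8.07 and 8.06 on the IL-13 arrays and rose by 2.96 ± 0.20.

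Stellate cell and myofibroblast markers were divided, as of 18 tested members 7 rose and 4 fell (7 and 3 without replicate 3). Cygb, cytoglobin, read 7.06, 7.08, 6.44 and 6.98 on the EGFP arrays and 10.36, 10.11 and 9.67 on the IL-13 arrays. Reln, reelin, read 10.70, 10.35, 10.55 and 10.91 on the EGFP arrays and 7.28, 8.19 and 7.59 on the IL-13 arrays. The IL-13 arrays were all high for the former and all low for the latter. Des, desmin (1.48 ± 0.12), and the growth factor receptor Pdgfra (1.97 ± 0.17) rose, and Acta2, smooth muscle actin, rose on 2 of 4 probes (2.21 ± 0.39 on the brightest). The defining stellate markers had a summed linear level of 1380 to 2010 with EGFP and 310 to 447 with IL-13, over 4 of 5 tested, of which 1 rose and 1 fell. Reln is among them.

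Endothelial markers were also divided, with 11 rises and 8 falls among 27 (9 and 8 without replicate 3). Vwf, von Willebrand factor, which sinusoidal cells normally express little of, read 5.84, 5.57, 5.87 and 5.86 on the EGFP arrays and 9.18, 9.62 and 10.09 on the IL-13 arrays, a change of 3.85 ± 0.19 (adjusted p = 3.04e-10). Vcam1, the leukocyte adhesion molecule, read 7.49, 7.94, 7.72 and 8.04 on the EGFP arrays and 10.69, 10.60 and 10.61 on the IL-13 arrays, and Pecam1 rose by 1.32 ± 0.15. Ehd3, an endocytic gene enriched in sinusoidal endothelium, read 8.73, 8.69, 8.78 and 8.84 on the EGFP arrays and 5.77, 5.83 and 6.002 on the IL-13 arrays and fell, with a change of -2.89 ± 0.13. The defining endothelial markers summed to 3160 to 3460 with EGFP and 819 to 1180 with IL-13, while of the 5 markers 1 rose and 1 fell. The falling marker, Clec4g, was named after its value was seen (-2.51 ± 0.31).

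The keratins of simple epithelia are markers of hepatocytes and bile duct cells. Krt8 read 10.50, 10.72, 11.06 and 10.71 on the EGFP arrays and 11.53, 11.63 and 11.56 on the IL-13 arrays. Krt18 read 8.64, 8.91, 9.10 and 8.88 on the EGFP arrays and 10.10, 9.73 and 10.26 on the IL-13 arrays. The groups did not overlap for either keratin, and the changes were 0.82 ± 0.16 and 1.15 ± 0.14. The ductular transcription factor Sox9 rose by 1.45 ± 0.17, and the keratin Krt23 fell, with a change of -1.87 ± 0.42. Of 13 biliary and ductular markers tested 3 rose and 2 fell (3 and 1 without replicate 3). Over all genes 21.5% rose and 19.2% fell, so the list lay near these shares. The defining cholangiocyte markers that could be tested, 2 of 5, summed to 38.9 to 48.4 with EGFP and 76.4 to 100 with IL-13, with Sox9 the member that rose.

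Of 26 neutrophil and mast cell markers listed 15 were tested, of which 10 rose and 0 fell (10 and 0 without replicate 3, 1 fall without EGFP replicate 2). The mast cell genes Mcpt4, Mcpt1, Mcpt2, Tpsb2, Kit and Fcer1a were not tested, so the count says nothing about them. The list median of 0.95 was 0.089 with no filter on dim probes. S100a8, a calgranulin, read 6.36, 7.94, 8.07 and 6.19 on the EGFP arrays and 10.30, 11.04 and 9.82 on the IL-13 arrays, a change of 3.25 ± 0.49 (adjusted p = 6.52e-05). The granule genes Ngp (1.52 ± 0.20) and Mpo, at least 2.85-fold, rose as well. Replicate 3 was the lowest of the IL-13 arrays for Mpo, which read 4.38, 4.30, 4.27 and 4.23 on the EGFP arrays and 6.39, 6.58 and 5.12 on the IL-13 arrays. Summed defining neutrophil markers were 122 to 355 with EGFP and 1130 to 2600 with IL-13, with 3 of 3 tested rising. Ly6g is not analysed here.

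Of 36 T, B and NK cell markers listed only 12 were tested, of which 0 rose and 3 fell (1 and 3 without replicate 3, 1 rise without EGFP replicate 4 or IL-13 replicate 2). Over all genes 21.5% rose and 19.2% fell. Cd3g, a chain of the T cell receptor complex, was detected on all EGFP arrays and on none of the IL-13 arrays, a fall of at least 1.17-fold. Zap70, a kinase of that receptor, read 9.03, 9.48, 8.94 and 9.19 on the EGFP arrays and 6.70, 6.13 and 6.205 on the IL-13 arrays and fell, with a change of -2.81 ± 0.37. The T cell markers summed to 24.1 to 28.9 with EGFP and 18.6 to 19.9 with IL-13, over 1 of 3 tested. That sum is Cd3g alone, near the floor.

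Of interferon stimulated genes and GTPases 21 of 28 fell and 1 rose (21 and 1 without replicate 3, 2 rises without EGFP replicate 1). Gbp3, a guanylate-binding GTPase, read 7.97, 7.63, 7.80 and 7.44 on the EGFP arrays and 4.64, 4.57 and 4.79 on the IL-13 arrays. Ifi27l2a read 7.33, 7.23, 7.10 and 6.99 on the EGFP arrays and 4.67, 5.24 and 4.82 on the IL-13 arrays. Both were lower on every IL-13 array, with changes of -3.04 ± 0.23 and -2.25 ± 0.14. Oasl2 fell (-1.63 ± 0.13), and Ifit3 fell on 2 of 3 probes. Usp18, which removes ISG15 and restrains interferon receptor signalling, was the member that rose (2.52 ± 0.49) and was named after its value was seen.

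Of MHC class I and peptide processing genes 8 of 19 fell and 1 rose (8 and 1 without replicate 3, 0 rises without IL-13 replicate 2). The non-classical genes H2-Q7 (-1.501 ± 0.13) and H2-T23 (-1.03 ± 0.13) fell, as did the peptide transporter Tap2 (-0.73 ± 0.15). Of class II presentation genes 7 of 11 rose and 1 fell (6 and 1 without replicate 3, 4 rises without EGFP replicate 1 or 4 or IL-13 replicate 2, 4 rises on the deposited values, 0 falls without IL-13 replicate 1). Cd74, the invariant chain, read 8.22, 8.46, 8.33 and 8.13 on the EGFP arrays and 9.24, 9.50 and 9.42 on the IL-13 arrays, a change of 1.10 ± 0.14 (adjusted p = 1.32e-05), and H2-DMa, which edits class II peptides, rose by 0.82 ± 0.14. H2-Ab1 rose on 1 of 4 probes, and the probe kept for H2-Aa was near the floor with a change of -0.065 ± 0.10.

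Transcription factors that maintain hepatocyte identity did not move as a block. Hnf4a, the central regulator of hepatocyte genes, read 10.55, 10.41, 10.26 and 10.47 on the EGFP arrays and 10.38, 10.52 and 10.43 on the IL-13 arrays. Nr1h4, the bile acid receptor FXR, read 10.97, 10.61, 10.79 and 10.85 on the EGFP arrays and 11.01, 10.70 and 10.90 on the IL-13 arrays. The groups overlapped for both, with changes of 0.023 ± 0.11 and 0.063 ± 0.13. Ppara, the fatty acid receptor, fell, with a change of -1.41 ± 0.17, and Nr1h3, the oxysterol receptor, by one of -0.78 ± 0.12. Of 21 nuclear receptors 9 fell and 2 rose (7 and 2 without replicate 3, 1 rise without EGFP replicate 2, 3 or 4 or IL-13 replicate 1 or 2).

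Of 23 liver-enriched transcription factors 9 fell and 3 rose (9 and 4 without replicate 3). Cebpa read 8.03, 7.73, 7.91 and 8.03 on the EGFP arrays and 6.34, 6.39 and 7.31 on the IL-13 arrays and fell, with a change of -1.24 ± 0.26. Replicate 3 was the highest IL-13 array, and on slide 2 alone Cebpa did not pass. Foxo1, a target of insulin signalling, fell (-1.46 ± 0.24). Gata6 rose (1.62 ± 0.13). Xbp1, a driver of the unfolded protein response, read 10.82, 10.73, 10.96 and 10.71 on the EGFP arrays and 12.20, 12.10 and 12.36 on the IL-13 arrays and rose by 1.42 ± 0.15.

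Growth hormone acts on hepatocytes through its receptor and STAT5 and sets the sex bias of liver genes. Ghr, the receptor, read 11.01, 11.18, 11.17 and 11.06 on the EGFP arrays and 9.64, 10.34 and 9.72 on the IL-13 arrays, a change of -1.20 ± 0.18 (adjusted p = 5.58e-05). Igf1 read 12.31, 12.38, 12.48 and 12.36 on the EGFP arrays and 11.37, 11.46 and 12.16 on the IL-13 arrays, with replicate 3 close to the EGFP arrays, and the change was -0.72, or -0.97 without replicate 3. Igfals, the acid-labile subunit that keeps IGF in the circulation, read 11.60, 11.37, 11.51 and 11.27 on the EGFP arrays and 8.32, 8.10 and 8.43 on the IL-13 arrays, the largest fall in the list (-3.15 ± 0.12, adjusted p = 1.58e-11). Igfbp1 read 4.34, 4.80, 4.30 and 5.20 on the EGFP arrays and 6.24, 5.67 and 7.93 on the IL-13 arrays, and its rise of 1.95 was 1.29 without replicate 3. Over the axis 10 of 19 rose and 6 fell (9 and 6 without replicate 3).

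Genes with a sex bias moved in both directions. Of 15 female-biased genes 10 fell and 1 rose (8 and 1 without replicate 3), and of 19 male-biased genes 6 rose and 6 fell (5 and 7 without replicate 3). Cyp2b9, female-biased, read 12.40, 12.08, 12.51 and 12.33 on the EGFP arrays and 8.09, 7.70 and 4.76 on the IL-13 arrays, low on all IL-13 arrays and lowest on replicate 3. Hao2, also female-biased, fell (-1.85 ± 0.23). Among male-biased genes Susd4, a regulator of complement, was undetected with EGFP and rose at least 8.09-fold, and Gstp1 rose (1.33 ± 0.21) while Ugt2b1 fell (-1.88 ± 0.19). Probes of the Cyp2b and Cyp4a families can bind the transcripts of close homologues.

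Drug-metabolising enzymes of the first phase fell widely, 25 of 34 P450 genes of families 1 to 3 with 3 rises (24 and 2 without replicate 3) and a median of -1.01, or -0.89 with undetected genes at their bound. Cyp1a2 read 12.04, 11.97, 12.05 and 12.16 on the EGFP arrays and 5.72, 6.23 and 6.29 on the IL-13 arrays, a change of -5.98 ± 0.20 (adjusted p = 4.55e-12). Cyp2e1, among the brightest transcripts of liver, read 14.12, 14.15, 14.15 and 14.15 on the EGFP arrays and 13.997, 13.93 and 13.75 on the IL-13 arrays. Its IL-13 arrays lay below the EGFP arrays but the change of -0.25 ± 0.11 did not pass (adjusted p = 0.0753), and it passed under median scaling, on the deposited log2 values and without background correction. Cyp2c29 fell on 1 of 2 probes.

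Of 46 conjugating enzymes 23 fell and 4 rose (21 and 4 without replicate 3, 7 rises without IL-13 replicate 1, 2 rises on the deposited values). Ugt3a1, a glycosyltransferase, read 11.13, 11.12, 11.11 and 11.07 on the EGFP arrays and 5.96, 6.62 and 7.03 on the IL-13 arrays, a change of -4.57 ± 0.21. The sulfotransferase Sult1c2 (-3.05 ± 0.26), the glucuronosyltransferase Ugt2a3 (-2.43 ± 0.18) and the glutathione transferase Gstt1 (-1.98 ± 0.15) fell. Of flavin monooxygenases, aldehyde and alcohol dehydrogenases 21 of 38 fell and 3 rose (21 and 4 without replicate 3). Aldh1a3, which makes retinoic acid, read 4.31, 4.25, 4.18 and 4.38 on the EGFP arrays and 8.44, 8.70 and 8.01 on the IL-13 arrays and rose at least 14.6-fold, and Aldh3b1 rose (1.43 ± 0.13). The hydroxysteroid dehydrogenase Akr1c6 (-3.08 ± 0.22) and Aldh4a1, of proline breakdown (-1.44 ± 0.12), fell.

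NRF2 targets, the antioxidant genes, moved in both directions, as of 20 tested members 8 rose and 3 fell (8 and 1 without replicate 3). Srxn1, sulfiredoxin (1.09 ± 0.10), Cbr3, a carbonyl reductase (1.58 ± 0.16), and Trib3, a pseudokinase that ATF4 also induces (1.42 ± 0.15), rose. Nfe2l2, the gene of NRF2 itself, read 6.05, 6.04, 6.52 and 6.12 on the EGFP arrays and 5.32, 5.06 and 5.19 on the IL-13 arrays and fell with a change of -0.99 ± 0.14.

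Among 18 enzymes that make cholesterol 16 fell and 0 rose, and among 24 genes that make fatty acids or regulate them 17 fell and 0 rose (16 and 17 fell without replicate 3, 1 rise without EGFP replicate 1 or IL-13 replicate 1 for the latter). The late sterol enzymes Sc5d (-2.31 ± 0.17) and Ebp (-1.69 ± 0.17) fell. Srebf1, which drives lipogenesis, read 8.58, 8.40, 9.26 and 8.91 on the EGFP arrays and 5.28, 5.27 and 5.32 on the IL-13 arrays, with the 3 IL-13 arrays within 0.1 log2 of each other. Slc27a5, which activates bile acids for conjugation, fell, with a change of -1.56 ± 0.15. Of fatty acid oxidation genes 16 of 30 rose and 2 fell (13 and 2 without replicate 3, 9 rises under median scaling or on the deposited values, 4 falls under median scaling), with Pdk4, which spares glucose from oxidation, at 5.31, 6.78, 5.70 and 6.08 on the EGFP arrays and 8.22, 9.16 and 9.75 on the IL-13 arrays. Replicate 3 was the highest IL-13 array for Pdk4.

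Of 19 lipid droplet proteins and lipases 7 rose and 4 fell (6 and 4 without replicate 3). Cidec, a droplet fusion protein, read 4.30, 4.89, 4.68 and 4.42 on the EGFP arrays and 8.71, 8.81 and 7.63 on the IL-13 arrays. Hilpda, an inhibitor of lipolysis, rose by 2.33 ± 0.12, Pnpla2, the triglyceride lipase that it inhibits, by 1.56 ± 0.13, and Lpl, lipoprotein lipase, by 2.05 ± 0.30. Of 18 apolipoproteins 3 rose and 6 fell (3 and 6 without replicate 3). Apoa4 read 10.45, 10.60, 9.95 and 10.45 on the EGFP arrays and 13.51, 13.81 and 13.26 on the IL-13 arrays and rose by 3.16 ± 0.18. Apol9b read 10.24, 10.27, 10.19 and 10.05 on the EGFP arrays and 6.03, 5.70 and 6.31 on the IL-13 arrays and fell, with a change of -4.17 ± 0.22. Apom, the carrier of sphingosine 1-phosphate, fell (-1.26 ± 0.25).

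Glucose handling genes changed in both directions, 9 rises and 11 falls among 32 (9 and 11 without replicate 3, 5 rises under median scaling). The glucose transporters moved oppositely. Slc2a1, GLUT1, read 6.68, 7.05, 7.11 and 6.96 on the EGFP arrays and 9.06, 9.21 and 8.75 on the IL-13 arrays. Slc2a2, the hepatocyte transporter GLUT2, read 10.39, 10.39, 10.70 and 10.53 on the EGFP arrays and 8.87, 8.25 and 7.88 on the IL-13 arrays. Neither overlapped between groups, with changes of 2.06 ± 0.14 and -2.17 ± 0.18. The liver pyruvate kinase Pklr (-2.46 ± 0.20) and the liver glycogen phosphorylase Pygl (-1.82 ± 0.16) fell. Pck1, the rate-limiting enzyme of gluconeogenesis, had a change of -0.31 ± 0.25 (adjusted p = 0.356) and G6pc, which releases glucose, one of -0.85 ± 0.62 (adjusted p = 0.304), neither past the threshold.

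Amino acid catabolism fell, with 26 of 43 urea cycle and catabolic enzymes down and 1 up (28 and 1 without replicate 3, 2 rises without IL-13 replicate 2). Cps1, the entry step of the urea cycle, read 13.10, 13.34, 13.32 and 13.52 on the EGFP arrays and 12.41, 11.99 and 12.95 on the IL-13 arrays, a change of -0.87 ± 0.19 (adjusted p = 0.00186), and Ass1 fell, with a change of -1.19 ± 0.23. Arg1 was the member that rose, at 12.52, 12.79, 12.67 and 12.50 on the EGFP arrays and 13.22, 13.07 and 12.93 on the IL-13 arrays, a change of 0.45 ± 0.13 (adjusted p = 0.0119). Without IL-13 replicate 1 the change was 0.38 and did not pass, and it did not pass under median scaling, on the deposited log2 values or within either slide. In tryptophan and tyrosine breakdown Afmid read 10.27, 10.04, 10.03 and 10.11 on the EGFP arrays and 7.61, 6.57 and 7.26 on the IL-13 arrays, and Haao (-1.40 ± 0.11) and Hpd (-1.86 ± 0.16) fell with it. Sardh, of sarcosine oxidation, fell (-1.88 ± 0.14).

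Among 33 genes of the ATF4 pathway and the unfolded protein response 24 rose and 2 fell (22 and 3 without replicate 3, 1 fall without IL-13 replicate 2). Asns, asparagine synthetase, read 4.22, 4.27, 4.36 and 4.19 on the EGFP arrays and 9.29, 9.50 and 9.01 on the IL-13 arrays, a rise of at least 26.9-fold. Psat1, of serine synthesis, read 4.39, 4.32, 4.35 and 4.51 on the EGFP arrays and 8.10, 8.88 and 7.30 on the IL-13 arrays. Nupr1, a stress-induced chromatin protein, rose by 3.23 ± 0.16. Fgf21, a hormone that amino acid shortage and fasting induce, read 5.11, 5.70, 5.12 and 5.24 on the EGFP arrays and 8.46, 9.85 and 8.09 on the IL-13 arrays. The groups did not overlap for these 4 genes. Of 20 amino acid transporters 3 rose and 5 fell (3 and 4 without replicate 3), against shares of 21.5% and 19.2% over all genes. Slc7a5, the large neutral transporter LAT1, rose by 2.06 ± 0.13 and Slc7a8 by 1.24 ± 0.16, while Slc38a3, the glutamine transporter of hepatocytes, read 12.19, 12.23, 12.16 and 12.16 on the EGFP arrays and 10.62, 10.06 and 10.69 on the IL-13 arrays and fell, with a change of -1.73 ± 0.15.

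Growth arrest and p53 targets were mixed, 7 rises and 5 falls among 20 (5 and 4 without replicate 3, 3 falls on the deposited values). Cdkn1a, the cell cycle inhibitor p21, read 5.09, 5.83, 5.23 and 6.15 on the EGFP arrays and 7.52, 7.99 and 8.13 on the IL-13 arrays, a change of 2.31 ± 0.31 (adjusted p = 2.38e-05). Gadd45g read 8.45, 9.35, 8.07 and 11.18 on the EGFP arrays and 12.06, 12.17 and 12.30 on the IL-13 arrays, with EGFP replicate 4 close to the IL-13 arrays. Among cell cycle genes 1 of 19 mitosis genes rose and 2 fell (1 and 1 without replicate 3, 0 rises without EGFP replicate 4 or IL-13 replicate 1 or 2, 1 fall without EGFP replicate 2 or 3 or IL-13 replicate 2), shares below the 21.5% and 19.2% of all genes. Cenpa of the centromere fell (-0.89 ± 0.17). Of DNA replication and nucleotide supply genes 3 of 23 rose and 8 fell (3 and 7 without replicate 3), and their median of -0.14 was 0.027 on slide 1. Tk1, thymidine kinase 1, read 9.65, 9.48, 9.69 and 9.72 on the EGFP arrays and 6.77, 5.71 and 5.82 on the IL-13 arrays, a change of -3.54 ± 0.26 (adjusted p = 3.30e-08), and the replication factor Mcm10 fell (-1.41 ± 0.21).

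Of 32 iron and heme genes 9 rose and 7 fell (8 and 6 without replicate 3, 11 falls under median scaling), with a median of 0.092 that was -0.14 under median scaling, -0.034 on the deposited log2 values and -0.022 with no filter. Hamp, the main hepcidin gene, read 12.77, 12.56, 12.71 and 12.59 on the EGFP arrays and 12.66, 12.69 and 12.03 on the IL-13 arrays, overlapping between groups with a change of -0.20 ± 0.43, whereas its copy Hamp2 had a change of -7.35. Tmprss6, a protease that restrains hepcidin, fell (-1.56 ± 0.12), and Hmox1, heme oxygenase 1, rose (1.37 ± 0.21). Of 18 metallothioneins and zinc transporters 7 rose and 2 fell (7 and 2 without replicate 3, 1 fall without IL-13 replicate 1, 4 falls under median scaling). The importers Slc39a5 (1.46 ± 0.18) and Slc39a6 (0.88 ± 0.13) rose. Of 7 carbonic anhydrases 2 rose and 2 fell (2 and 2 without replicate 3, 1 fall without EGFP replicate 2). Besides Car4 and Car3, Car13 rose at least 1.59-fold from below detection.

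Of 23 acute phase proteins 14 rose and 1 fell (12 and 1 without replicate 3, 0 falls without EGFP replicate 2 or IL-13 replicate 2). Within slide 1 only 5 rose and 0 fell. The list median of 1.05 was 0.48 within slide 1 and 1.43 within slide 2, where replicate 3 is the only wild-type IL-13 array. Lcn2, lipocalin 2, read 9.20, 11.33, 9.36 and 8.72 on the EGFP arrays and 13.76, 14.05 and 14.38 on the IL-13 arrays, with EGFP replicate 2 the highest control. Within slide 1 the change of Lcn2 was 3.645 and did not pass (limma adjusted p = 0.095). Lbp, which binds endotoxin, rose by 2.01 ± 0.28, and Apcs, serum amyloid P, by 1.503 ± 0.28. Saa1 read 5.07, 6.38, 4.66 and 4.31 on the EGFP arrays and 5.47, 5.64 and 8.64 on the IL-13 arrays. Saa2 read 4.23, 5.58, 4.39 and 4.28 on the EGFP arrays and 4.87, 4.72 and 8.24 on the IL-13 arrays. Replicate 3 carried most of both changes, which did not pass (adjusted p = 0.155 and 0.208) and were 0.45 and 0.18 without it.

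Among serpins 6 of 19 rose and 9 fell (5 and 9 without replicate 3). The hormone carriers of this family moved in opposite directions. Serpina7, thyroxine-binding globulin, read 6.88, 7.21, 7.17 and 7.21 on the EGFP arrays and 11.05, 10.66 and 11.43 on the IL-13 arrays. Serpina6, corticosteroid-binding globulin, read 12.83, 12.42, 12.79 and 12.60 on the EGFP arrays and 7.997, 7.21 and 7.16 on the IL-13 arrays. The groups were fully apart for both, with changes of 3.93 ± 0.19 and -5.20 ± 0.43. Serpind1, heparin cofactor II, fell (-2.73 ± 0.16), and Serpina3n, an acute phase serpin, rose (1.12 ± 0.12). Of 42 complement and coagulation factors 11 rose and 15 fell (8 and 18 without replicate 3). Mbl2, a mannose-binding lectin, read 11.25, 11.21, 11.35 and 11.18 on the EGFP arrays and 8.27, 7.86 and 8.41 on the IL-13 arrays. Klkb1, prekallikrein, read 10.77, 10.78, 10.86 and 10.90 on the EGFP arrays and 8.65, 7.79 and 7.70 on the IL-13 arrays. Both were lower on every IL-13 array, with changes of -3.07 ± 0.14 and -2.78 ± 0.18, while C1qc, which macrophages make, rose (1.73 ± 0.12).

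Hepatocyte markers fell in part, 9 of 22 with 3 rises (9 and 3 without replicate 3). Alb read 9.99, 9.59, 10.36 and 10.38 on the EGFP arrays and 8.54, 8.12 and 8.89 on the IL-13 arrays, a change of -1.56 ± 0.20 (adjusted p = 1.49e-05). Asgr2, a chain of the asialoglycoprotein receptor, fell (-1.05 ± 0.14) and Fetub, a secreted fetuin, rose (1.31 ± 0.18). The summed linear level of the 7 defining markers tested was 58500 to 60400 with EGFP and 49500 to 55400 with IL-13. Of 19 injury and fetal liver genes tested 13 rose and 1 fell (12 and 1 without replicate 3). Afp, H19 and Dlk1 of this list were not tested, so the count says nothing about them. Cd63 read 7.25, 7.35, 7.27 and 7.26 on the EGFP arrays and 10.57, 10.91 and 10.34 on the IL-13 arrays, Anxa2 rose by 1.75 ± 0.14 and Mfge8, a bridge for apoptotic cell uptake, by 1.73 ± 0.11. Ly6e was the member that fell (-2.15 ± 0.17).

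Genes of both zones of the hepatocyte plate fell. Of pericentral genes 10 of 20 fell and 1 rose (9 and 2 without replicate 3), and of periportal genes 11 of 21 fell and 2 rose (10 and 2 without replicate 3, 1 rise without IL-13 replicate 1). Rgn, pericentral, fell (-1.81 ± 0.13). Cyp2f2, periportal, read 12.84, 12.63, 12.96 and 13.01 on the EGFP arrays and 9.01, 9.69 and 10.85 on the IL-13 arrays, a change of -3.01, or -3.51 without replicate 3. The pericentral member that rose was Tuba8, a tubulin undetected with EGFP, at least 3.40-fold.

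Of 15 clock genes 9 fell and 1 rose (7 and 1 without replicate 3, 2 rises without IL-13 replicate 1). Dbp, a clock-driven activator, read 12.18, 11.62, 11.72 and 11.88 on the EGFP arrays and 10.52, 8.97 and 9.43 on the IL-13 arrays. Ciart, a repressor of the clock, read 8.86, 8.91, 8.59 and 9.35 on the EGFP arrays and 6.67, 6.46 and 6.42 on the IL-13 arrays. Per3 read 6.41, 6.38, 6.99 and 6.83 on the EGFP arrays and 5.81, 4.73 and 4.66 on the IL-13 arrays. The groups did not overlap for these 3 genes, and the changes were -2.21 ± 0.31, -2.41 ± 0.32 and -1.58 ± 0.25. The sources used here give no clock time for tissue collection.

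Of 52 cytosolic ribosomal protein genes 38 rose and 2 fell (44 and 2 without replicate 3, 1 fall without IL-13 replicate 1 or 2), with a median of 0.54. Under median scaling 21 rose and 2 fell, and on the deposited log2 values 26 and 2. Rpl12 read 10.71, 10.57, 10.60 and 10.70 on the EGFP arrays and 12.08, 11.88 and 11.76 on the IL-13 arrays, a change of 1.26 ± 0.11 (adjusted p = 3.55e-07), Rps3 rose by 1.01 ± 0.11 and Rps4x by 0.79 ± 0.089. Of 29 proteasome subunits 14 rose and 0 fell (15 and 0 without replicate 3), and 5 rose under median scaling. The base subunit Psmc4 rose by 0.80 ± 0.10 and the ubiquitin receptor Psmd4 by 0.79 ± 0.10. Of 59 oxidative phosphorylation subunits 7 rose and 5 fell (9 and 4 without replicate 3, 1 rise without IL-13 replicate 1, 3 rises without EGFP replicate 3, 4 rises without EGFP replicate 2 or IL-13 replicate 2, 0 rises under median scaling or on the deposited values, 18 falls under median scaling), with Sdhb of complex II down (-0.77 ± 0.18).

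**Figure D3:**
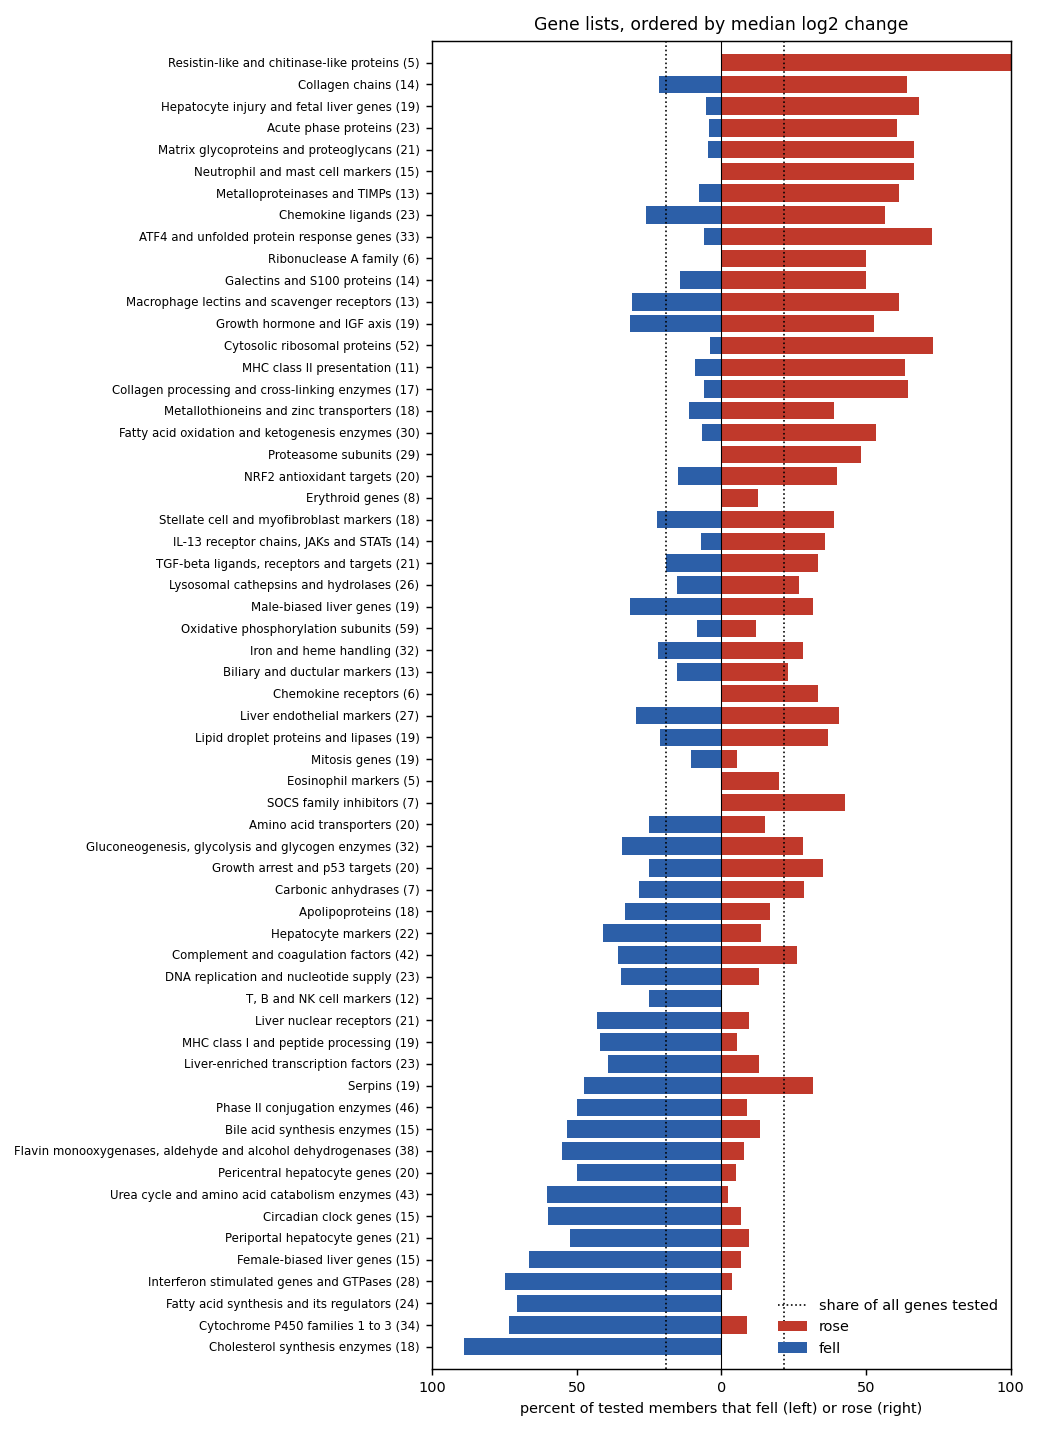
Percent of tested members that rose (red, right) or fell (blue, left) in each of the 60 gene lists with at least 5 tested members, the number tested in brackets, ordered by the median log2 change. Dotted lines mark the shares of all genes tested, 21.5% for rises and 19.2% for falls, and the lists run from resistin-like and chitinase-like proteins at the top to cholesterol synthesis enzymes at the bottom.

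The IL-13 arrays varied more among themselves than the EGFP arrays, with a median SD over genes of 0.174 against 0.142. Of the changed genes 218 spanned more than 1 log2 unit over the 3 IL-13 arrays. Replicate 3 lay above both others by more than 1 unit for 41 of the changed genes and below both for 15, against 15 and 13 for replicate 1 and 8 and 9 for replicate 2.

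The widest ranges among changed genes were of major urinary proteins, pheromone carriers that male mouse liver secretes in quantity. Mup2 read 12.99, 13.81, 13.21 and 13.46 on the EGFP arrays and 8.65, 8.56 and 13.31 on the IL-13 arrays. Mup20 read 11.30, 12.65, 11.97 and 12.31 on the EGFP arrays and 6.59, 6.66 and 11.96 on the IL-13 arrays. Mup6 read 11.74, 12.70, 11.92 and 12.03 on the EGFP arrays and 7.23, 7.33 and 11.65 on the IL-13 arrays. Replicates 1 and 2 were low for all 3 genes, and replicate 3 lay at or near the EGFP level. Their changes were -3.19, -3.65 and -3.36, or -4.76, -5.43 and -4.82 without replicate 3, and on slide 2 none passed. The Mup genes are near-identical, so these probes cannot be taken as independent.

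Slc4a1, the anion exchanger of red cells, read 4.78, 5.38, 5.21 and 5.01 on the EGFP arrays and 9.11, 5.18 and 7.95 on the IL-13 arrays, high on 2 of the 3 IL-13 arrays. Its change of 2.32 ± 0.64 passed (adjusted p = 0.00852), and without IL-13 replicate 1 it was 1.47 and did not. Of 8 erythroid genes 1 rose and 0 fell (1 and 0 without replicate 3, 0 rises without IL-13 replicate 1, 5 rises without IL-13 replicate 2, 1 fall without IL-13 replicate 1), Slc4a1 being the riser, and the haemoglobin gene Hbb-bt had a change of 0.47 ± 0.19 that did not pass. Reg3b, a secreted lectin induced by injury and infection, read 4.24, 4.35, 4.32 and 4.19 on the EGFP arrays and 4.24, 4.83 and 10.07 on the IL-13 arrays, high on replicate 3 alone. Its change did not pass (adjusted p = 0.0719).

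**Figure D4:**
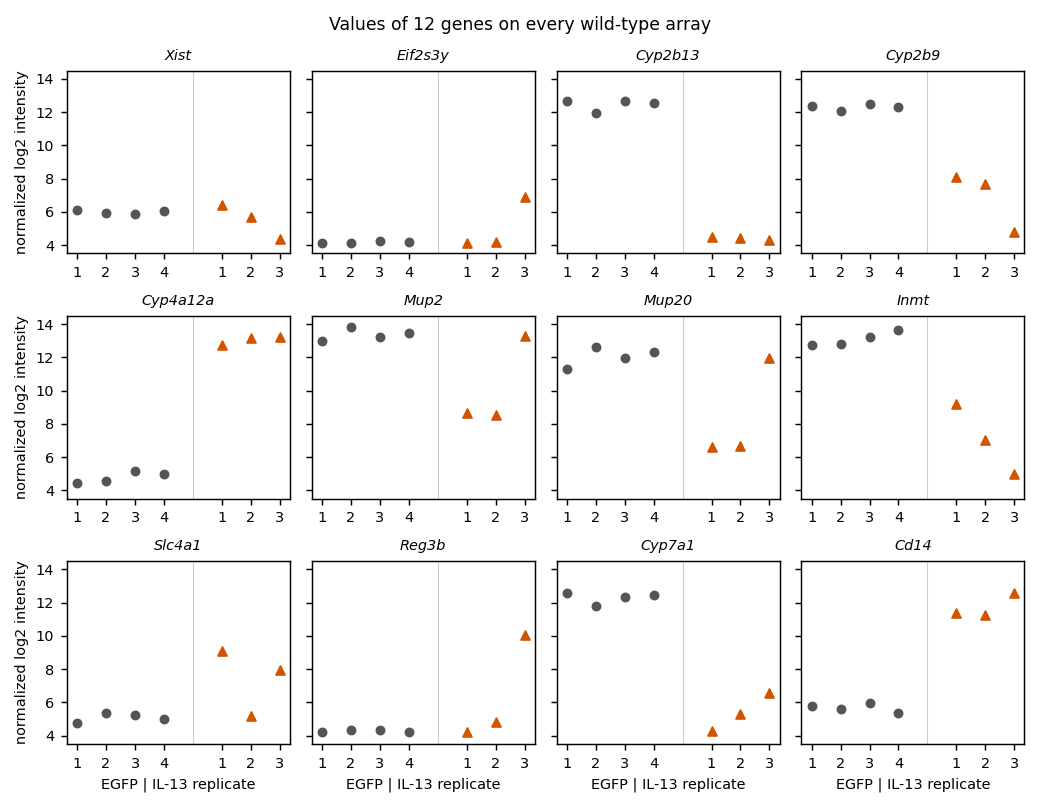
Normalised log2 intensity (y axis) of 12 genes on the 4 EGFP arrays (circles) and the 3 IL-13 arrays (triangles), by replicate number. Replicate 3 with IL-13 has low Xist (4.36), high Eif2s3y (6.89) and Reg3b (10.07), and Mup2 (13.31) and Mup20 (11.96) at the EGFP level, while Cyp2b13 and Cyp4a12a were alike on all 3 IL-13 arrays.

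The wild-type response was set beside that of Alb-Cre liver to see where it differed. The difference of the responses passed for 1277 of 9711 genes (13.2%), and for 14 of the 20 genes with the largest wild-type changes. These 20 were picked by the size of the wild-type change, which enters the difference, so their count is a description. For Thrsp the change in Alb-Cre was -0.40 ± 0.30, a difference (Alb-Cre minus wild type) of 7.03 ± 0.42 (adjusted p = 1.43e-07), and for Car3 it was -0.99 ± 0.38. Scd1 (-0.021 ± 0.55 in Alb-Cre) and Cd14 (0.80 ± 0.26) also had smaller changes there, with differences of 6.05 ± 0.78 and -5.27 ± 0.36. Chil3, a macrophage product, had a change of 3.80 ± 0.29 in Alb-Cre, a difference of -3.92 ± 0.41 (adjusted p = 1.62e-05).

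Where EGFP arrays did not detect a gene, as for Retnla and Chil3, or IL-13 arrays did not, as for Car3, these are fitted values and no bounds. The difference did not pass for Cyp4a12a, Retnla, Col6a1, Col6a2, Cyp2b13 and Hamp2. For Retnla it was -0.49 ± 0.24 (adjusted p = 0.198), for Col6a1 -0.11 ± 0.26 and for Hamp2 1.95 ± 0.74 (adjusted p = 0.101). In Alb-Cre every IL-13 array had Y-linked transcripts and every EGFP array had Xist, so plasmid and that pattern cannot be told apart in that genotype. Without wild-type IL-13 replicate 3 each of the 20 kept its direction and its side of the threshold.

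**Figure D5:**
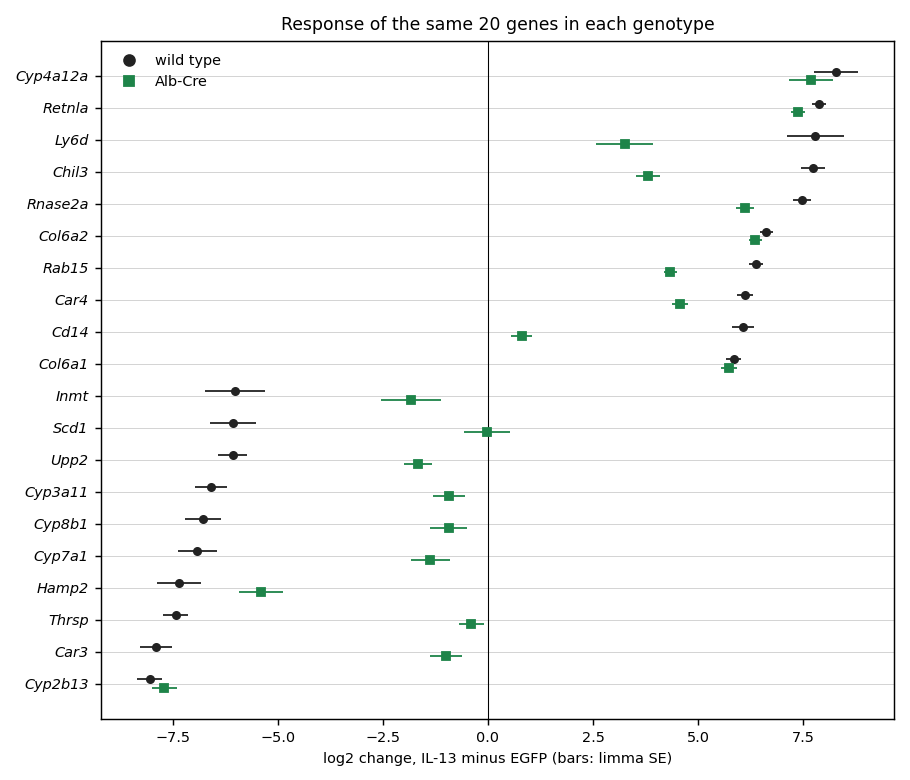
Log2 change with IL-13 (x axis) of the 10 largest wild-type rises and falls in wild type (circles) and Alb-Cre (squares), with bars of 1 limma standard error. The squares of Cyp4a12a, Retnla, Col6a1, Col6a2 and Cyp2b13 lie near the circles, and those of Thrsp (-0.40) and Scd1 (-0.02) lie near 0.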

How the data were processed

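Whole-liver RNA of 7 wild-type and 7 Alb-Cre samples was measured on Illumina mouse BeadChips. The authors deposited non-normalized probe intensities with a detection p-value for each probe and array, and the submitters' processing notes name GenomeStudio 2011.1. They also deposited a table of log2 values. On comparison with the intensity file, each column of it was the log2 of the intensities times a factor of its own (4.52 to 4.85), with a median of 8.966 on every array.

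In R 4.3.3 with limma 3.58.1, the intensities were background-corrected with neqc (normexp from the detection p-values, offset 16), quantile normalised and put on the log2 scale. Probes with a detection p under 0.05 on at least 3 arrays were kept, 14109 of 25697. Of all probes 23978 had 1 gene symbol in GEO's platform annotation, 0 had several and 1719 had none, and 23962 matched RefSeq. The brightest kept probe stood for each gene, and for 2570 genes with several kept probes the text says, for genes it names, where probes disagreed. Probes named for a gene that did not pass the filter, or symbols without a probe, were not analysed here.

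The limma model held 1 mean for each of the 4 groups over all 14 arrays, with Benjamini-Hochberg adjustment over 9711 genes at 0.05. Groups and replicate numbers were taken from the titles. The numbers in the wild-type IL-13 descriptions disagree with them. Where all arrays of a group were undetected, the bound divides the brighter group's mean by a mean over the dim arrays, taking on each the larger of the probe's signal and the dimmest detected signal.

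The text names the 10 largest rises and 10 largest falls (adjusted p under 0.05, arrays not overlapping, detected on all arrays of the brighter group), up to 4 members of each gene list with the smallest p, a fixed set of genes, and the 5 changed genes with the widest IL-13 range. The gene sets, lists and genes were chosen with earlier results of these data known. On simulated data with 50 genes changed at each size, 44% of changes of 0.5, 98% of changes of 1 and 100% of changes of 2 or 4 (log2) were recovered for this comparison among 9711 genes. Of 180 calls 9 were false. The simulation used independent normal noise and changed a far smaller share of genes than the 40.7% called here. Its recovery rates therefore need not hold for these data. Alternatives covered slide, replicate number, samples in the fit, background, normalisation, source of values, filter, choice of probe, array weights, threshold and each replicate in turn.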

Additional observations from a re-analysis of the deposited data

Results flagged for a closer look

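In 12 of 222 genes named, 1 EGFP array lay far from the other 3, by a gap above the critical share of the range in Dixon's test. Chance gives such a gap in about 1 in 20 groups. On the log2 scale the values were 12.64 for Ang, 11.92 for Cyp2b13, 12.14 for Hpd, 5.582 for Saa2 and 5.565 for Vwf on EGFP replicate 2. They were 6.438 for Cygb, 6.52 for Nfe2l2, 10.38 for Rps3 and 8.056 for S100a11 on EGFP replicate 3. On EGFP replicate 1 they were 4.361 for Chil3, which is below detection, 14.12 for Cyp2e1 and 6.881 for Serpina7.

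The response to IL-13 differed between the genotypes, by limma's test of the difference, for 1277 genes and for 14 of the 20 genes with the largest wild-type changes. As Alb-Cre minus wild type on the log2 scale, the difference was 6.91 for Car3, 7.026 for Thrsp, 6.046 for Scd1, 5.832 for Cyp8b1, 5.668 for Cyp3a11, 5.546 for Cyp7a1, 4.409 for Upp2 and 4.188 for Inmt, all of which fell in wild type. It was -5.266 for Cd14, -4.537 for Ly6d, -3.921 for Chil3, -2.04 for Rab15, -1.538 for Car4 and -1.358 for Rnase2a, all of which rose in wild type. These genes were picked for a large wild-type change, which enters the difference. Y-linked transcripts were detected on all 3 Alb-Cre IL-13 arrays and on no Alb-Cre EGFP array, so in that genotype plasmid and this pattern cannot be told apart.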

How the results depend on the processing

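Of the 3952 changed genes, 3443 were called again without IL-13 replicate 3. Leaving out each wild-type array in turn gave 3431 to 3738 changed genes, with 1815 to 2048 rises and 1616 to 1786 falls. On slide 1 alone 1463 rose and 1206 fell, and on slide 2 alone 2449 changed, 1237 up and 1212 down, both from fewer arrays. A change of at least 2-fold held for 1075 genes, 588 up and 487 down. The other settings gave 3316 (deposited log2 values) to 4114 (array weights). Median scaling gave 1624 rises and 2310 falls, with a median over all genes of -0.079. Replicate number as a block gave 3830 (2013 up, 1817 down). The deviations of same-numbered samples correlated with r = 0.17, -0.0578 and 0.0732, within a range of -0.208 to 0.17 over all pairs of an EGFP and an IL-13 array. Same-numbered arrays also lay on the same slide, so these values cannot decide whether the samples were paired. No named gene changed sign while called. The median of the IL-13 receptor, JAK and STAT genes became -0.002869 under median scaling. For lysosomal enzymes it became -0.04551 under median scaling and -0.03865 on slide 2. For iron and heme genes it became -0.1444 under median scaling, -0.0339 on the deposited values and -0.02229 with no filter. For TGF-beta genes it became -0.0312 on slide 2 and for DNA replication genes 0.02685 on slide 1. The cause was not tested. The difference of responses passed for 1349 genes without IL-13 replicate 3 and for 890 with Y-linked transcripts as a covariate, which differs within a group only through that array and so tests nothing about sex. With genes in 3 equal bins by the higher group mean, which a change itself raises, 55.6% of the brightest bin passed and 18.7% of the dimmest.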
